A study of Mus musculus with 4 samples.

Results

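The genes described here are 9 nutrient and hormone transporters of the blood-brain barrier (BBB), taken by symbol from the 55487 genes counted in the series: Mfsd2a, Slc2a1, Slc16a1, Slco1a4, Slco1c1, Slc7a5, Slc3a2, Slc7a1 and Slc38a5. The list was set by symbol and not by a threshold on measured values, but with earlier results of these data known. Counts of the 9 genes set beside shares of all genes below are therefore descriptions of a chosen list. UMIs (unique molecular identifiers, each standing for 1 captured RNA molecule) of all 9 were found in endothelial cells of all 4 libraries. The series profiled brain cells of C57BL/6J mice by single-cell RNA-seq after enrichment of endothelial cells (ECs) through CD31, with 1 library for each of 4 groups, namely WT Cre and EC-K4KO at young and at old age. EC-K4KO mice carried floxed Klf4, the gene of a Krüppel-like transcription factor, together with an inducible Cre driven by the endothelial Cdh5 (VE-cadherin) promoter, and their WT Cre littermates carried the Cre without the floxed gene. According to the study's methods Cre was induced with tamoxifen in adult mice, while the labels state that no drug treatment was given for the experiment. Mice of both sexes were used, the labels give age only as young or old (the study gives age ranges for its cohorts, not for each library), and how many mice went into a library is not given in the sources used here.

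The endothelium of brain capillaries is sealed by tight junctions and takes up little by vesicles, so water-soluble nutrients and hormones reach the brain through carrier proteins in its membranes. Mfsd2a carries lysophospholipids with omega-3 fatty acids and restrains transcytosis, Slc2a1 is the glucose carrier, and Slc16a1 moves lactate, pyruvate and ketone bodies. Slco1c1 carries thyroxine, and Slco1a4 carries bile acids, conjugated steroids and other organic anions. Slc7a5 and Slc3a2 form a heterodimer, with Slc7a5 the exchange carrier for large neutral amino acids and thyroid hormones and Slc3a2 the heavy chain that brings it to the membrane. Slc7a1 carries arginine and lysine, and Slc38a5 carries glutamine and other small neutral amino acids.

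The promoters of Slc16a1 and of Mfsd2a are shown because the results by genotype label and by age turn on these genes. Each run is the 250 bases before the start of the gene in RefSeq on GRCm38.p6, written 5′ to 3′ on the gene's strand, at chr3:104638414-104638663 (plus strand) for Slc16a1 and chr4:122961189-122961438 (minus strand) for Mfsd2a. Capitals mark CACCC and its reverse complement GGGTG, the core of the boxes that Krüppel-like factors bind.
Slc16a1: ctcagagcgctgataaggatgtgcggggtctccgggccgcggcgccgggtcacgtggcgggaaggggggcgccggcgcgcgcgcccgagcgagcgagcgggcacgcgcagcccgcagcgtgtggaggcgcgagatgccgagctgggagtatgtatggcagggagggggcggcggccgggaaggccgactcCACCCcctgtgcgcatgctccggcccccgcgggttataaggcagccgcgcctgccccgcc
Mfsd2a: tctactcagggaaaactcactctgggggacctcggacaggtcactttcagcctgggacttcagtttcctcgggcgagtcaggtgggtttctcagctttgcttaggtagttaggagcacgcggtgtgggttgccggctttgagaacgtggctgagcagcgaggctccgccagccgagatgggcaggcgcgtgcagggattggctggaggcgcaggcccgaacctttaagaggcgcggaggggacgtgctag
Slc16a1 held 1 such match, 60 bases before the start, and Mfsd2a held none in this window. The motif stood in the window before the RefSeq start of 6 of the 8 transporters with a promoter in the set searched, which held none for Slc7a5. For Slc7a1 it stood in 1 promoter and not in another. Of all 32851 mouse promoters in the set, 17087 (52.0%) held it in a window of the same length. A match is a description of the letters and not a binding site. By the GENCODE annotation of the same genome build, GRCm38, the genes themselves lie at chr3:104638668-104658462 for Slc16a1, chr4:122946850-122961188 for Mfsd2a and chrX:8271133-8280179 for Slc38a5.

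The libraries held 5324 to 8358 cell barcodes each, of which 20737 of 26422 were kept after filters on depth, mitochondrial share and doublets. Marker genes named 10026 kept cells endothelial-like (2710 in young WT Cre, 3290 in young EC-K4KO, 2137 in the old WT Cre library and 1889 in old EC-K4KO), with 10639740 to 42708098 UMIs per library and a median of 3753 to 9859 UMIs per cell. These class names were rebuilt from markers, because an annotation by the authors was not used here. Any pair of libraries shared 7 to 42 barcodes. Summed UMIs of the 10 endothelial markers came to 19579 to 23316 as counts per 1e6 UMIs (CPM), those of the 7 neutrophil markers to 4.07 to 9.36 CPM in 3 libraries and to 195 CPM in old EC-K4KO, and Ttr, a choroid plexus transcript, to 14.7 to 284 CPM. The 6 erythroid markers reached 347 and 357 CPM in young and old WT Cre, and 718 and 683 CPM in young and old EC-K4KO, so they were higher under the EC-K4KO label at both ages. Genes induced by tissue dissociation reached 11283 and 14606 CPM in the young libraries (WT Cre first) and 16309 and 15025 CPM in the old ones, and the part of these in the differences below was not tested.

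Klf4, the targeted gene, was counted at 1716 CPM in endothelial-like cells of the library labelled young WT Cre and at 3301 CPM under the young EC-K4KO label. At old age it was counted at 2109 CPM under the WT Cre label and at 3306 CPM under the EC-K4KO label, so that its UMIs went against the labels at both ages. The study also measured Klf4 transcript and protein in brain endothelial cells isolated soon after induction, and those measurements are not analysed here. The exons removed by the floxed allele, and the place of the UMIs in the gene, are not given in the sources used here, and UMIs outside the removed part would not check the deletion. Every difference by genotype below is therefore one between libraries labelled EC-K4KO and WT Cre.

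The transporters were first compared across cell classes. Over 16 classes, 8 of the 9 genes had their highest mean level in endothelial-like cells. Slc38a5 stood 162-fold above microglia-like cells of the same libraries in CPM, Slco1a4 109-fold, Slco1c1 99.6-fold, Mfsd2a 74.6-fold and Slc2a1 41.5-fold. Slc7a1 stood 29.3-fold, Slc16a1 19.3-fold and Slc7a5 16.1-fold above them. The gap to the next class was smaller, at 2.45-fold to 3.36-fold over B-like cells for Slc7a1, Slc2a1, Slc16a1, Slc38a5 and Slco1a4 and 2.68-fold over neutrophil-like cells for Slc7a5, whose ranges over libraries overlapped. Over astrocyte-like cells it was 2.32-fold for Slco1c1 and 1.56-fold for Slc3a2. Slc3a2, whose heavy chain serves amino acid carriers in many cell types, stood 2.34-fold above microglia-like cells. Its mean of 695 ± 104 CPM (SD, n = 4 libraries) in endothelial-like cells was followed by 446 ± 45.8 CPM (SD, n = 4) in astrocyte-like cells, and the ranges of these neighbours over libraries did not overlap.

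Astrocyte-like cells also held the thyroxine carrier and the lysophospholipid carrier. Slco1c1 averaged 515 ± 105 CPM (SD, n = 4) there and 1194 ± 152 CPM (SD, n = 4) in endothelial-like cells, without overlap. Mfsd2a averaged 116 ± 15.3 CPM (SD, n = 4) in astrocyte-like cells, and its 202 ± 46.7 CPM (SD, n = 4) in endothelial-like cells came second to 210 CPM in oligodendrocyte precursor-like cells, a class that 1 library alone filled. B-like and neutrophil-like clusters carried endothelial markers, at 14103 and 12753 CPM under the young EC-K4KO label and at 1394 and 392 CPM under the old one. They held 38.3 and 42.0 transporter UMIs per 100 endothelial marker UMIs in the young library, where endothelial-like cells held 35.5, and 65.4 and 76.3 in the old library, where endothelial-like cells held 37.3. Slc38a5 was counted at 115 CPM in the B-like cells of old EC-K4KO, and the source of these UMIs was not tested.

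A cluster of 85 cells led by Plvap, Gpihbp1 and Esm1, genes of fenestrated endothelium, stayed unnamed and outside the endothelial-like class. The cluster held 12 to 30 cells per library. Each of the 9 genes was lower there than in endothelial-like cells in all 4 libraries, without overlap of the ranges. Slc38a5 was counted at 0 to 20.5 CPM against 167 to 279, Mfsd2a at 0 to 21.1 CPM against 162 to 254, and Slco1c1 at 0 to 215 CPM against 1038 to 1385. In old EC-K4KO, whose 12 cells held none of these 3 transcripts, the 0 UMIs allow up to 33.3 CPM. Slco1a4 was counted at 80.5 to 185 CPM against 1407 to 1941, Slc2a1 at 109 to 429 CPM against 2129 to 2690, and Slc16a1 at 22.2 to 111 CPM against 246 to 587. Slc7a5 and Slc7a1 stood at 11.1 to 71.7 and 22.2 to 105 CPM against 276 to 564 and 371 to 586. The heavy chain gene Slc3a2 stood at 259 to 518 CPM against 598 to 826, and its 518 against 598 CPM in old WT Cre lay within counting error. The 10 endothelial markers differed there in both directions. Over all cells of the cluster and of the endothelial-like class, Kdr was at 2205 and 486 CPM, Pecam1 at 1025 and 681, Cdh5 at 893 and 637, Tie1 at 340 and 216, Flt1 at 4976 and 4615, and Egfl7 at 1242 and 1236 CPM. The tight-junction gene Cldn5 was at 292 and 5879 CPM, Itm2a at 789 and 3439, Ly6c1 at 2051 and 4629, and Esam at 517 and 726 CPM. The cells were clustered on many genes at once, so these values describe the cluster and were not tested.

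The transporters differed in how they were spread along the vessel tree. Endothelial-like cells fell into 5884 capillary-like, 910 arterial-like and 490 venous-like cells, with 2742 left unnamed, and levels by segment are descriptions with no test. Of these 3 named segments Slc38a5 was highest in venous-like cells, and an unnamed subcluster described with the subclusters held more of it in both old libraries. In venous-like cells it was counted at 591 CPM in young WT Cre, 649 in young EC-K4KO, 687 in the old WT Cre library and 710 in old EC-K4KO. In capillary-like cells the same libraries held 123, 290, 196 and 150 CPM. In arterial-like cells they held 0, 3.8, 1.2 and 2.2 CPM, where the 0 UMIs in young WT Cre allow a level of up to 1.3 CPM. The 3 segments did not overlap in any library, and venous-like cells stood 3.65-fold above capillary-like cells (mean log2 ratio 1.87 ± 0.52, SD, n = 4).

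Slc16a1 and Slc7a5 were low in arterial-like cells and higher in capillaries and veins. Slc16a1 averaged 54.7 ± 6.5 CPM (SD, n = 4) in arterial-like cells, 552 ± 169 in capillary-like cells and 357 ± 75.2 in venous-like cells, and the last pair overlapped over libraries. Slc7a5 averaged 64.1 ± 20.01 CPM (SD, n = 4) in arterial-like, 570 ± 152 in capillary-like and 299 ± 58.6 in venous-like cells, without overlap. Its partner Slc3a2 kept the same order on a shallower slope, at 377 ± 109, 841 ± 124 and 572 ± 32.8 CPM (SD, n = 4). Slc7a1 followed it at 177 ± 41.9, 584 ± 87.9 and 279 ± 11.8 CPM (SD, n = 4), again with no overlap between segments.

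Mfsd2a was a capillary gene, at 271 ± 43.4 CPM (SD, n = 4) in capillary-like cells against 92.1 ± 12.2 in arterial-like and 55.9 ± 13.4 in venous-like cells. Both organic anion carriers were low on one side of the vessel tree. Slco1a4 was lowest in arterial-like cells at 853 ± 90.4 CPM (SD, n = 4), with 1889 ± 195 in capillary-like and 1250 ± 43.3 in venous-like cells. Slco1c1 was lowest in venous-like cells at 499.99 ± 107 CPM (SD, n = 4), while its 1170 ± 77.7 in arterial-like and 1307 ± 121 in capillary-like cells overlapped. Slc2a1 was close to even, at 2546 ± 247 CPM (SD, n = 4) in arterial-like, 2328 ± 267 in capillary-like and 2186 ± 236 in venous-like cells, with all ranges overlapping. Its order between arterial-like and capillary-like cells turned over when segments were set by marker UMIs alone.

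**Figure D1:**
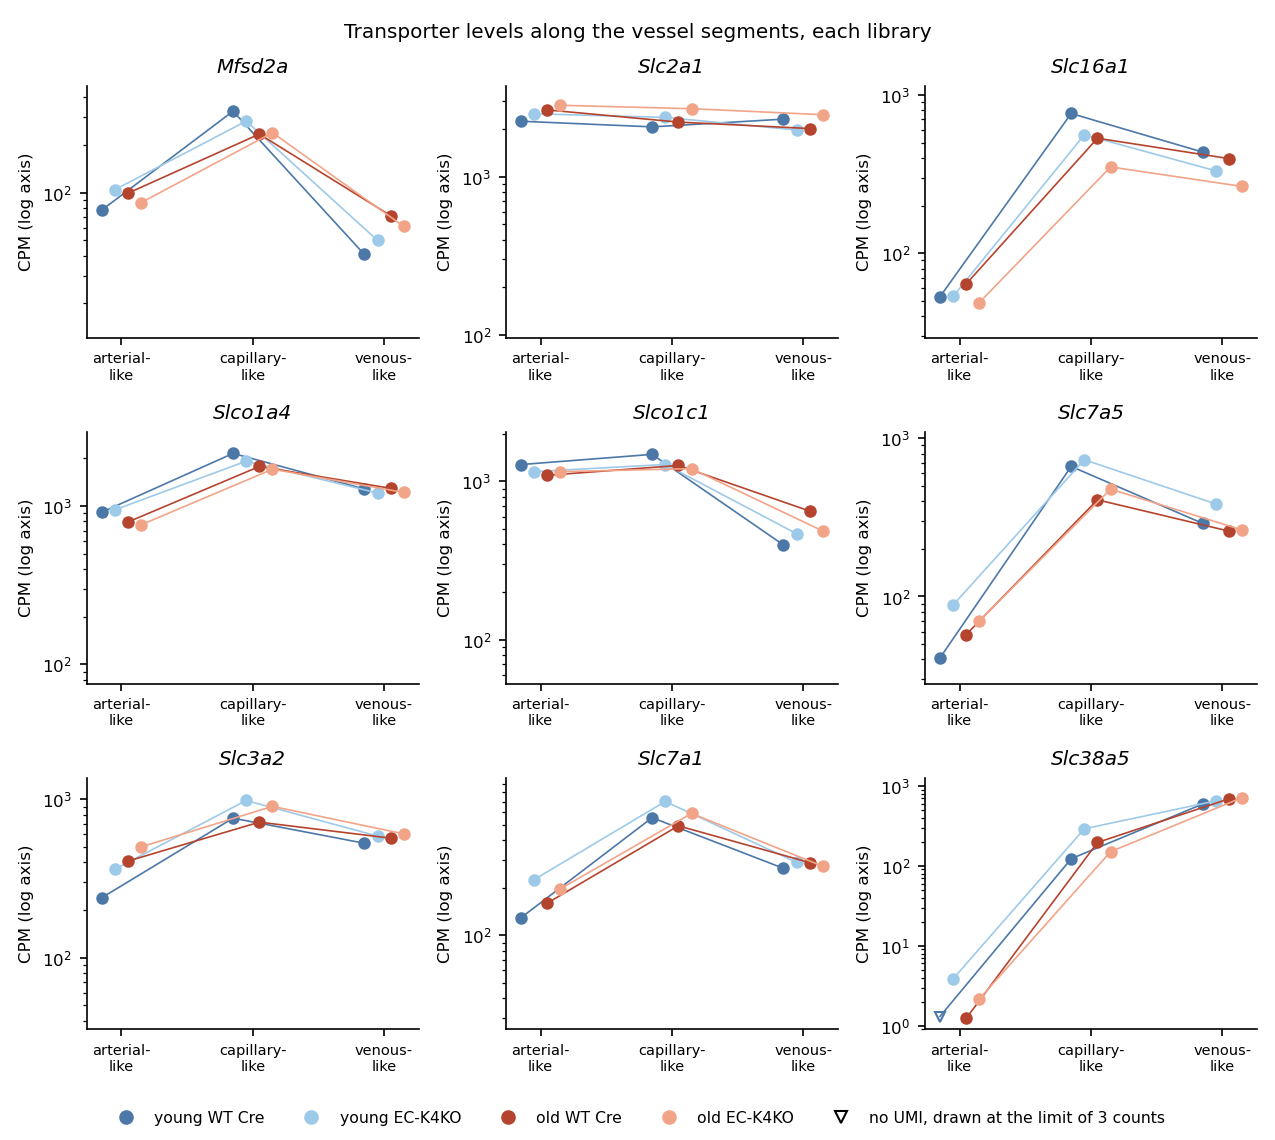
Level of each transporter in arterial-like, capillary-like and venous-like cells of each library (CPM, log axis), with 1 point per library joined by lines, and a triangle for the library with no UMI at the limit of 3 counts. Slc38a5 lies lowest in arterial-like and highest in venous-like cells in all 4 libraries, while Slc2a1 lies near the same level in all 3 segments.

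Genes whose level ran most like that of a transporter were named over 42 profiles, each the summed UMIs of 1 endothelial subcluster in 1 library, among 3274 genes. These profiles share libraries and depth, so each Pearson r is a description without a test. Slc7a5 ran with Tiam1 (r = 0.97), Slc38a5 with Car14 (r = 0.96) and Slc16a1 with the iron exporter Slc40a1 (r = 0.94). Mfsd2a ran with Spock2 (r = 0.93), Slco1a4 with Grap (r = 0.93), Slc7a1 with Slc38a3 (r = 0.92), Slc3a2 with Ccdc141 (r = 0.90) and Slco1c1 with Mcc (r = 0.89). Slc2a1 had the loosest companion, Acer2 (r = 0.64).

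Old and young libraries were compared next, to see which transporters differ with age. Mfsd2a, Slc16a1 and Slc7a5 fell with age in endothelial-like cells, and none of the 9 genes passed as higher in these sums. Mfsd2a was counted at 254 CPM in young WT Cre, 230 in young EC-K4KO, 163 in the old WT Cre library and 162 in old EC-K4KO. Slc16a1 was counted at 587, 428, 366 and 246 CPM in the same order. Slc7a5 was counted at 489, 564, 276 and 318 CPM. For each of the 3 genes both old libraries lay below both young ones. Marker UMIs moved with age as well, with endothelial markers at 23316 and 23310 CPM in the young WT Cre and EC-K4KO libraries and 21166 and 19579 CPM in the old ones. Border macrophage markers stood at 10.1 and 13.1 against 24.2 and 29.8 CPM and choroid plexus markers at 74.6 and 16.4 against 295 and 138 CPM. Neutrophil markers stood at 4.81 and 4.07 against 9.36 and 195 CPM, monocyte markers at 2.48 and 1.76 against 4.81 and 4.61, and oligodendrocyte precursor markers at 6.62 and 4.12 against 7.76 and 8.74 CPM. Dissociation genes were likewise higher in both old libraries and astrocyte markers lower (186 and 192 against 177 and 170.5 CPM), and the part of all these in the age differences was not tested.

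The test was an additive model in edgeR with terms for age and for genotype label, fitted to the endothelial-like sums of all genes, in which the 4 libraries leave 1 residual degree of freedom. That degree of freedom holds any change with age that depends on the label, and no group has a replicate library. Slc7a5 fell by 0.68 on the log2 scale (SE 0.07, edgeR adjusted p = 0.0019, over 14 alternatives 1.18e-13 to 0.0541), Slc16a1 fell by 0.59 (SE 0.08, edgeR adjusted p = 0.00408, range 1.16e-10 to 0.154) and Mfsd2a fell by 0.42 (SE 0.07, edgeR adjusted p = 0.0103, range 3.79e-06 to 0.636). The 3 of 9 genes called lower stand against 6.18% of all 14824 genes tested, and the 0 called higher against 10.2%. At an unadjusted p under 0.05, 2 of the 9 were higher, against 17.8% of all genes. DESeq2 called the same 3 genes lower, against 1.39% of all genes, and 0 higher, against 5.22%. The absence of higher calls depended on the setting, as 1 of the 9 genes passed as higher in 5 of 14 alternatives, where 6.91% to 11.9% of all genes did, a share near the background. In 2 further alternatives 2 of the 9 passed, against 7.85% of all genes after thinning each cell to 1000 UMIs and 2.67% within a single capillary-like subcluster. The median log2 fold change with age was -0.21 over the 9 genes and -0.02 over all genes. Scaling to total UMIs instead moved that median of all genes to -0.16, and the old-to-young ratios of CPM below carry that shift.

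The other 6 transporters did not pass the test for age, although all but Slc3a2 passed in at least 1 alternative. Slc2a1 was counted at 2129 CPM in young WT Cre, 2381 in young EC-K4KO, 2296 in the old WT Cre library and 2690 in old EC-K4KO (log2 fold change with age 0.29, edgeR adjusted p = 0.0716, passing as higher in 3 of 14 alternatives, range 0.000162 to 0.217). Slc38a5 was counted at 167, 276, 260 and 279 CPM in the same order (0.47, edgeR adjusted p = 0.0649, passing as higher in 5 of 14, range 1.76e-05 to 0.991), so that young WT Cre alone stood low. Slc7a1 was at 466, 586, 371 and 430 CPM (-0.24, edgeR adjusted p = 0.0809, passing in 4 of 14, as higher in 1 of these, range 0.0117 to 0.743). The organic anion carriers had lower values in both old libraries. Slco1a4 was at 1941, 1746, 1466 and 1407 CPM (-0.21, edgeR adjusted p = 0.136, passing as lower in 2 of 14, range 0.0189 to 0.674), and Slco1c1 at 1385, 1239, 1114 and 1038 CPM (-0.14, edgeR adjusted p = 0.282, passing as lower in 1 of 14, range 0.0324 to 0.964). Slc3a2 was at 627, 826, 598 and 729 CPM (0.02, edgeR adjusted p = 0.882, range 0.243 to 0.979), and the sign of its log2 fold change turned with the scaling.

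**Figure D2:**
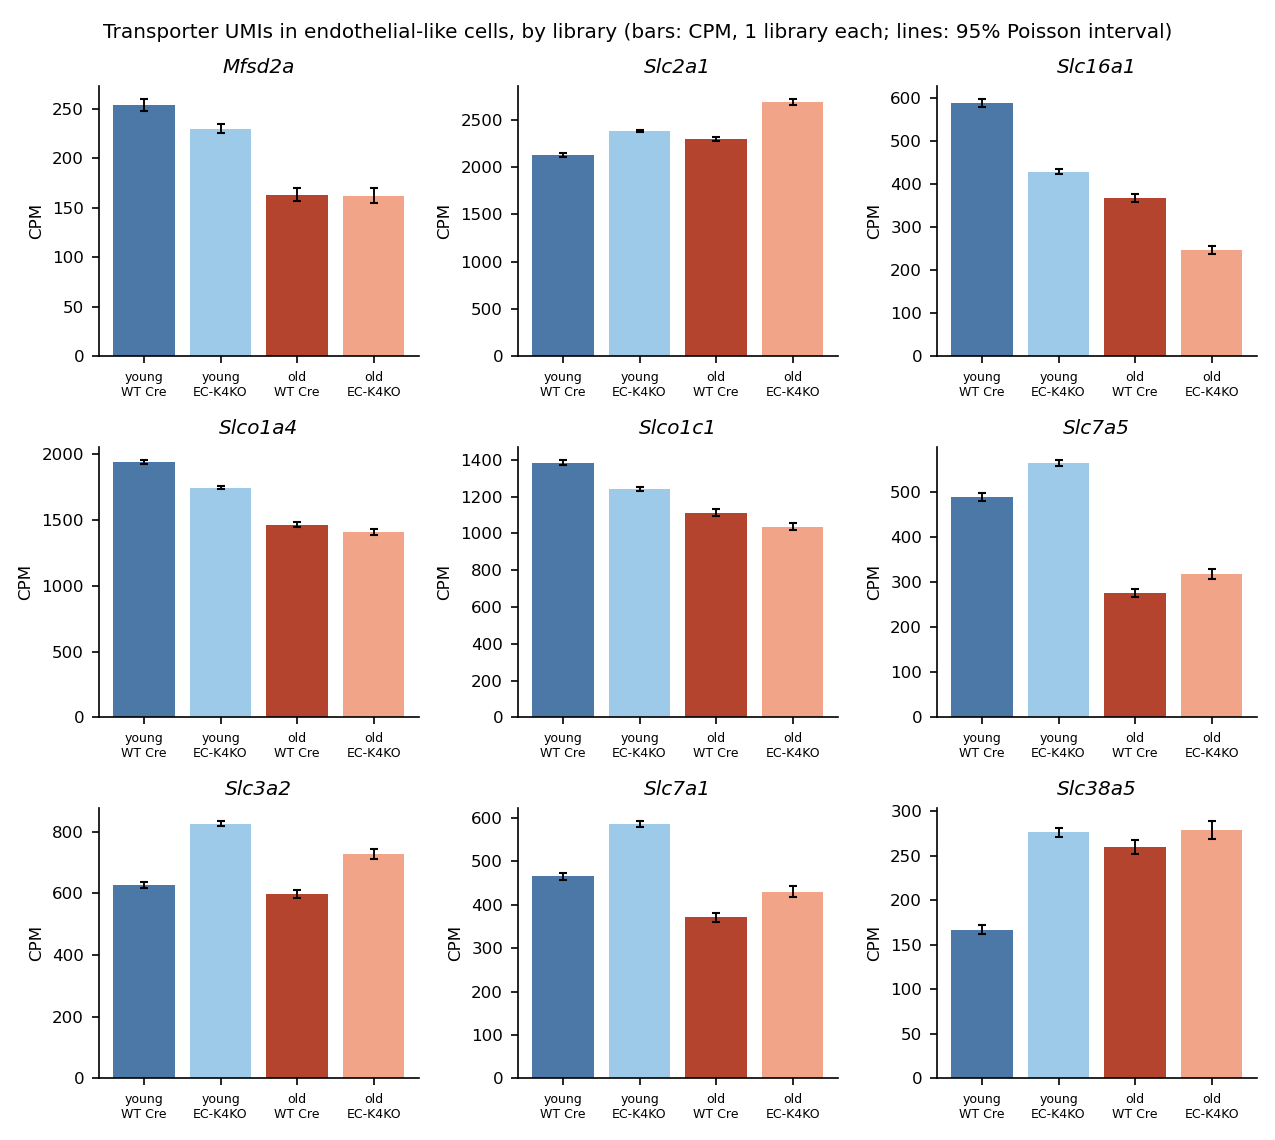
Level of each transporter in endothelial-like cells of each library (CPM, from 0), with bars for the 4 libraries and 95% Poisson intervals that cover counting error only. Slc16a1 stands highest in young WT Cre at 587 CPM and lowest in old EC-K4KO at 246 CPM, and Slc7a5 is lower in both old libraries.

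Pair by pair, the ratio of CPM with its conditional 95% interval, which covers counting error only, was lower in the old library beyond counting error for 7 of 9 genes under the WT Cre label and for 7 of 9 under the EC-K4KO label. Of all 8426 genes averaging at least 10 CPM, 55.7% and 48.4% were so. It was higher for 2 and for 1 of the 9 genes, against 15.8% and 16.4% of all genes. The median log2 ratio of the 9 genes was -0.33 and -0.31, and that of all genes -0.18 and -0.15. Slc7a5 gave -0.82 under the WT Cre label and -0.83 under the EC-K4KO label, Slc16a1 -0.68 and -0.80, and Mfsd2a -0.64 and -0.50. Slc38a5 gave 0.64 (0.58 to 0.70) and 0.01 (-0.05 to 0.07), and whether these differ could not be tested with 1 library per group. In capillary-like cells Slc38a5 gave 0.68 (0.57 to 0.79) under the WT Cre label and -0.95 (-1.07 to -0.83) under the EC-K4KO label.

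By the segment names used here, old libraries held larger shares of arterial-like and venous-like cells. Together these gave 14.97% and 15.9% of endothelial UMIs in the young WT Cre and EC-K4KO libraries, and 38.8% and 41.9% in the old ones. As shares of cells they were 7.31% and 9.76%, and 21.01% and 22.87%. Unnamed cells fell from 38.1% and 38.5% of these UMIs to 18.6% and 16.5%. With coarser subclusters, arterial-like cells numbered 45 and 88 in the young libraries and 233 and 201 in the old ones. Venous-like cells then numbered 41 and 119, and 52 and 75, so their rise depended on the naming. The capillary-like cells differed in makeup too. Their subcluster led by Ankrd37 and Adm held 1.36% and 0.879% of capillary-like cells in the young libraries and 62.0% and 56.6% in the old ones. The age comparison was therefore repeated on capillary-like sums alone, and on subcluster 3, which held 16.0% to 35.1% of capillary-like cells in every library and was chosen after seeing the data. Subcluster 3 passed all 8 capillary markers but was led by S100a8, a neutrophil gene, and Ttr, and its cells were shallow at a median of 2578 UMIs.

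Slc16a1 stayed lower with age in both of these settings. In capillary-like sums it fell by 0.46 on the log2 scale (edgeR adjusted p = 0.003), and within subcluster 3 it fell by 0.52 (edgeR adjusted p = 0.000155). Slc7a5 fell by 0.52 in capillary-like sums (edgeR adjusted p = 0.000744), with -0.32 within subcluster 3 (edgeR adjusted p = 0.0541). Mfsd2a lost its call, at -0.22 in capillary-like sums (edgeR adjusted p = 0.135) and -0.16 within subcluster 3 (edgeR adjusted p = 0.636). In venous-like cells its values ran the other way, from 40.8 CPM in young to 71.7 in old WT Cre (log2 ratio 0.81, 0.39 to 1.26) and from 50.003 to 61.3 CPM under the EC-K4KO label (0.29, -0.04 to 0.62), with no test. For Slc16a1 the untested age ratio under the WT Cre and EC-K4KO labels was -0.14 (-0.28 to 0.01) and -0.33 (-0.47 to -0.18) in venous-like cells, and 0.27 (-0.06 to 0.60) and -0.13 (-0.49 to 0.22) in arterial-like cells. Within subcluster 3, Slc2a1 rose by 0.39 (edgeR adjusted p = 0.000162) and Slc7a1 by 0.38 (edgeR adjusted p = 0.0117), the latter in the opposite direction to its value in all endothelial-like cells. In capillary-like sums 2 of 9 genes were called lower against 5.23% of all genes and 0 higher against 8.82%, with 1 higher at an unadjusted p under 0.05, against 15.1% of all genes. Within subcluster 3, 1 was called lower against 1.63% and 2 higher against 2.67%.

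The amino acid carrier and its heavy chain parted with age. Endothelial-like cells held 78.003 Slc7a5 UMIs per 100 Slc3a2 UMIs in young WT Cre, 68.3 in young EC-K4KO, 46.2 in the old WT Cre library and 43.6 in old EC-K4KO. In capillary-like cells the same ratio was 87.3, 74.4, 56.9 and 52.8, and within subcluster 3 it was 97.6, 72.3, 64.0 and 54.9. Both old libraries were below both young ones in all 3 sets of cells. A ratio of UMIs shows unequal change of the pair and not which of them changed.

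The libraries labelled EC-K4KO and WT Cre were then compared at each age, with Klf4 UMIs running against those labels. Slc16a1 was lower in the library labelled EC-K4KO at both ages, at 428 against 587 CPM at young age and 246 against 366 CPM at old age. It was the only one of the 9 genes to pass the additive model for the genotype label, in which it fell by 0.48 on the log2 scale (SE 0.08, edgeR adjusted p = 0.0482, over 14 alternatives 7.56e-06 to 1.00). DESeq2 called it lower too (adjusted p = 0.0148). The 1 gene called lower stands against 0.452% of all genes in edgeR and 0.378% in DESeq2, and the 0 called higher against 0.553% in edgeR and 0.589% in DESeq2. At an unadjusted p under 0.05, 5 of the 9 were higher, against 6.30% of all genes. Erythroid marker UMIs moved with the label too (347 and 357 against 718 and 683 CPM). Neuron markers were lower under the EC-K4KO label, at 64.7 against 169.9 CPM at young age and 107 against 323 CPM at old age. Choroid plexus markers were lower as well, at 16.4 against 74.6 CPM and 138 against 295 CPM. Ependymal markers were also lower, and border macrophage markers higher, at both ages. The part of all these in the Slc16a1 difference was not tested. The call was lost under a stricter cell filter (edgeR adjusted p = 0.0595) and in a model with the genotype label alone (edgeR adjusted p = 1.00), while the log2 fold change stayed between -0.51 and -0.46 over the 14 alternatives.

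The lower Slc16a1 level under the EC-K4KO label was seen in capillary-like and in venous-like cells of both pairs. In arterial-like cells, where the gene is low, the WT Cre and EC-K4KO libraries held 53.0 and 53.3 CPM at young age (log2 ratio 0.01, -0.34 to 0.36) and 63.9 and 48.7 CPM at old age (-0.39, -0.74 to -0.05). In capillary-like cells Slc16a1 was counted at 763 and 560 CPM at young age and at 533 and 351 CPM at old age, and in venous-like cells at 436 and 331 CPM and at 396 and 264 CPM. Within subcluster 3 it was at 683, 625, 581 and 323 CPM in the young WT Cre, young EC-K4KO, old WT Cre and finally the old EC-K4KO library. With the genotype label it fell by 0.50 in capillary-like sums (edgeR adjusted p = 0.00604) and by 0.46 within subcluster 3 (edgeR adjusted p = 0.00298). In subcluster 3 the old EC-K4KO library, far below the rest, enters both this term and the age term. After each cell was thinned to 1000 UMIs, the minimum depth of kept cells, 39.4% (95% Clopper-Pearson interval 37.5 to 41.2), 30.7% (29.2 to 32.3), 29.4% (27.5 to 31.4) and 21.9% (20.1 to 23.9) of endothelial-like cells had a Slc16a1 UMI, in the same order of libraries, against 1.89% to 2.68% of microglia-like cells. Without thinning those shares were 78.8%, 78.4%, 64.7% and 51.2%, at median depths of 6353, 9859, 4691 and 3753 UMIs per endothelial-like cell and 3914 to 5456 per microglia-like cell.

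The amino acid carriers had higher values under the EC-K4KO label without passing the test on the endothelial-like sums. Slc3a2 gave log2 ratios of 0.40 at young age and 0.29 at old age (additive model 0.37, edgeR adjusted p = 0.112), Slc7a1 0.33 and 0.21 (0.31, edgeR adjusted p = 0.184) and Slc7a5 0.21 and 0.20 (0.24, edgeR adjusted p = 0.276). Slc3a2 passed as higher in 5 of 14 alternatives (range of edgeR adjusted p 0.00267 to 1.00), among them capillary-like sums (0.38, edgeR adjusted p = 0.0477) and subcluster 3 (0.39, edgeR adjusted p = 0.00843). Slc7a1 passed as higher in 3 of 14 (range of edgeR adjusted p 0.0282 to 1.00), with no filter on low counts, without venous-like cells and after thinning, and Slc7a5 in none. Slc2a1 gave 0.16 and 0.23 (0.23, edgeR adjusted p = 0.412). Mfsd2a, Slco1a4 and Slco1c1 gave -0.14, -0.15 and -0.16 at young age and -0.01, -0.06 and -0.10 at old age. All 3 had edgeR adjusted p-values of 0.751 to 0.889 for the label.

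Slc38a5 gave 0.73 at young age and 0.10 at old age (additive model 0.45, edgeR adjusted p = 0.278, passing as higher in 3 of 14 alternatives, range 3.31e-05 to 1.00). In capillary-like cells it was counted at 123 CPM in young WT Cre and 290 in young EC-K4KO, and at 196 CPM in the old WT Cre library and 150 in old EC-K4KO, so the label's direction differed between ages there. The young capillary-like cells differed in makeup by label too, as subcluster 0 held 52.3% of them in WT Cre and 29.1% in EC-K4KO, and subcluster 1 held 29.3% and 54.0%. Young WT Cre and EC-K4KO cells held 111 and 203 CPM of Slc38a5 within subcluster 0 and 136 and 318 CPM within subcluster 1. With segments set by marker UMIs alone the capillary levels were 131, 227, 158 and 123 CPM, with young WT Cre first, then young EC-K4KO, old WT Cre and last old EC-K4KO. Within subcluster 3 they were 120, 268, 208 and 206 CPM, and the label's term was 0.54 (edgeR adjusted p = 0.0121). In venous-like cells the log2 ratio was 0.13 at young age and 0.05 (-0.05 to 0.15) at old age.

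By the ratio of CPM, 5 of the 9 genes were higher and 4 lower under the EC-K4KO label beyond counting error in the young pair, against 18.8% and 31.8% of all 8426 genes. In the old pair 5 were higher and 3 lower, against 13.8% and 16.2%. The median log2 ratio of the 9 genes was 0.16 and 0.10, and that of all genes -0.04 and -0.02. Each library enters an age and a genotype comparison, so the 4 sets of ratios share libraries.

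**Figure D3:**
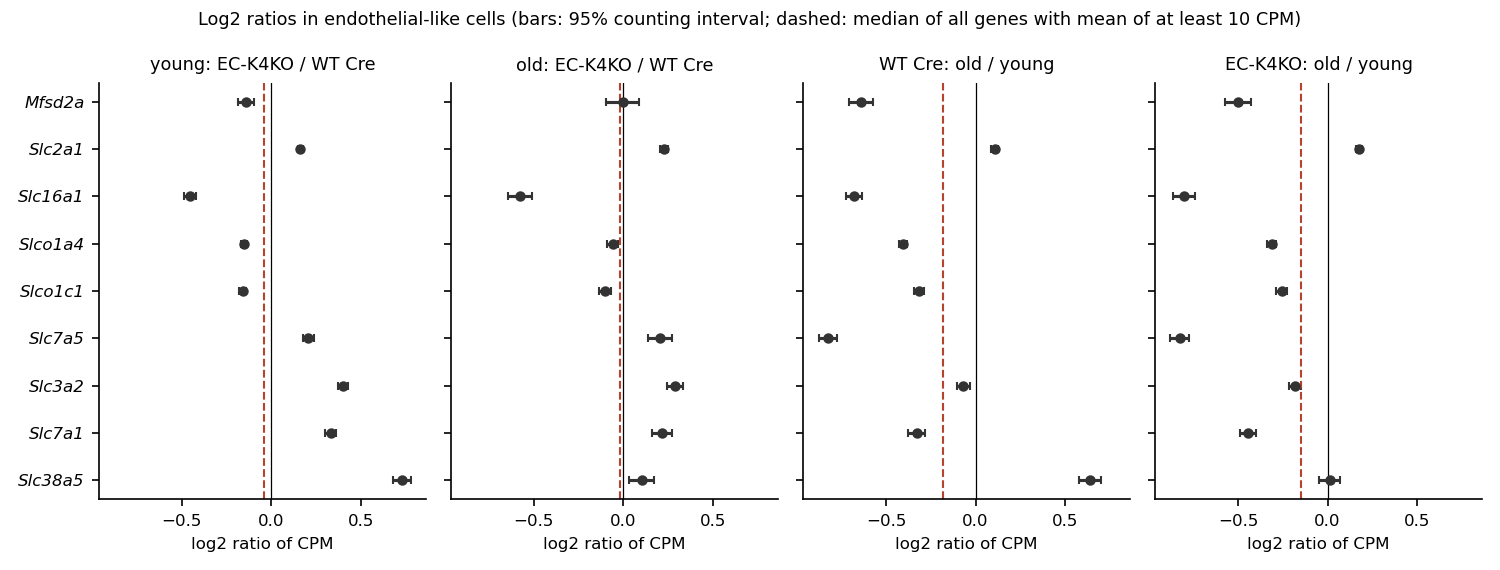
Log2 ratio of CPM of each transporter in the 4 library pairs, with conditional 95% intervals for counting error and a dashed line at the median of all 8426 genes averaging at least 10 CPM. Slc16a1 lies below it in all 4 pairs, and Slc7a5 lies below it in the age pairs at -0.82 and -0.83.

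An unnamed subcluster of 770 cells, led by Cyp2e1 and Flrt2, passed 7 of 11 venous and 6 of 8 capillary markers. There Slc38a5 was counted at 412, 535, 797 and 1010 CPM, with young WT Cre first, then young EC-K4KO, old WT Cre and last old EC-K4KO, so both old libraries lay above both young ones. Slc16a1 was counted at 920, 652, 529 and 305 CPM in the same cells, and here both old libraries lay below both young ones. These levels were not tested.

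**Figure D4:**
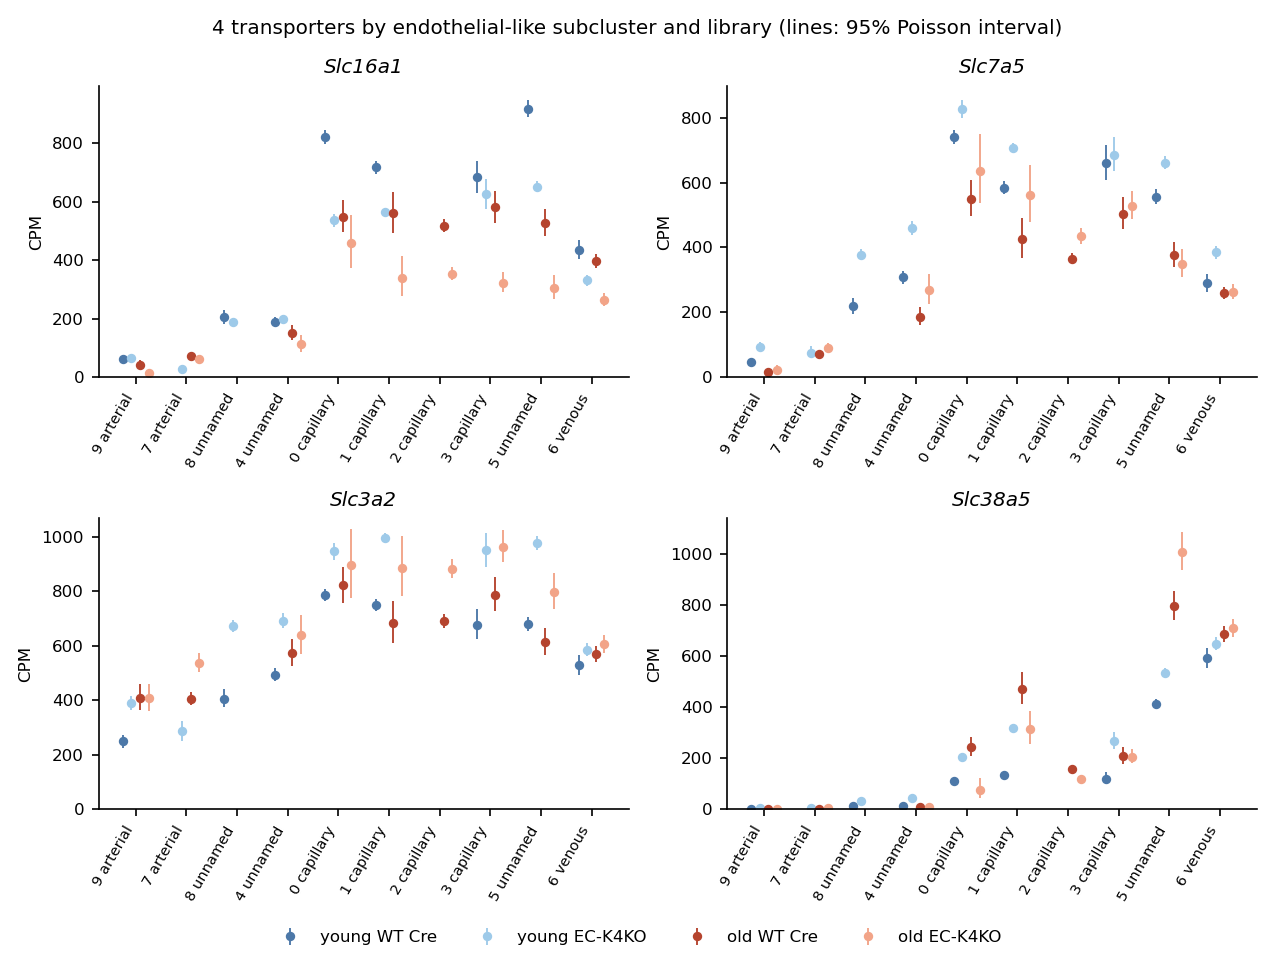
Level of Slc16a1, Slc7a5, Slc3a2 and Slc38a5 in 10 endothelial subclusters of each library (CPM, points with 95% Poisson intervals), leaving out 3 mixed subclusters and points of fewer than 30 cells. Slc16a1 is lower in old EC-K4KO than in young WT Cre within subcluster 0 (821 and 459 CPM) and subcluster 3 (683 and 323 CPM).

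Other carriers of the barrier were read from a list of 18 solute carriers that left out the 9 genes. With age 10 of the 18 fell and 0 passed as higher in endothelial-like cells, against the 6.18% and 10.2% of all genes given above, with 2 higher at an unadjusted p under 0.05 against 17.8%. DESeq2 called 6 of them lower and 0 higher, against 1.39% and 5.22% of all genes. In 7 of 14 alternatives 1 or 2 of the 17 or 18 tested passed as higher, where 6.91% to 11.9% of all genes did, a share near the background. The iron exporter Slc40a1 fell by 0.66 on the log2 scale (edgeR adjusted p = 0.00469), the nucleoside carrier Slc29a1 by 0.65 (edgeR adjusted p = 0.00939) and Flvcr2, a choline carrier, by 0.52 (edgeR adjusted p = 0.00707). Slc35f2, Slc16a4 of the monocarboxylate carrier family and the organic anion carrier Slco2b1 fell by 0.49, 0.46 and 0.39 (edgeR adjusted p = 0.00537, 0.00592 and 0.0108). Within subcluster 3, 1 of the 17 that could be tested passed, as lower, against 1.63% of all genes.

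For the genotype label 1 of these 18 passed, against 0.553% of all genes called higher. Slco2b1 was higher by 0.41 (edgeR adjusted p = 0.04995) and kept that call in 6 of 14 alternatives. The taurine carrier Slc6a6, counted at 2271, 1992, 2169 and 1736 CPM in the young WT Cre, young EC-K4KO, old WT Cre and finally the old EC-K4KO library, passed for neither term. Slc38a2, a carrier of small neutral amino acids, was at 563, 839, 806 and 778 CPM and the zinc exporter Slc30a1 at 292, 345, 388 and 348 CPM. Neither passed for age in these sums (edgeR adjusted p = 0.145 and 0.0654), while they passed as higher in 3 and 7 of 14 alternatives. Slc39a10, a zinc importer, was at 505, 511, 394 and 337 CPM and fell with age by 0.33 (edgeR adjusted p = 0.0473). The medians of the 18 were -0.37 for age and -0.03 for the label.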

How the data were processed

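Brain cells of 4 mouse groups were profiled with 1 library each. The authors' deposited matrices hold UMI counts per gene and cell barcode, and the file headers name Cell Ranger 6.0.2. The submitters' processing notes also name Seurat and mm10 (GRCm38). Barcodes were kept from 500 genes and 1000 UMIs upward, with a mitochondrial share of no more than 10%, and the cells of highest Scrublet score, 0.8% per 1000 cells of a library, were removed as doublets. Cells were clustered without the 9 transporters and the 18 other carriers (scanpy 1.11.5, 2000 variable genes, 30 components, 20 neighbours, resolution 1), and clusters and vessel segments were named from marker lists, by rules set after the clusters were seen. UMIs were summed per library. Sums of all genes entered the quasi-likelihood test of edgeR 4.0.16 (R 4.3.3; TMM, filterByExpr, age and genotype label, Benjamini-Hochberg threshold 0.05), checked on simulated data, with DESeq2 1.42.0 as an alternative.

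CPM is UMIs per 1e6 UMIs of the same cells. Levels have exact Poisson, shares exact Clopper-Pearson and ratios conditional binomial intervals at 95%, which cover counting error only, and a count of 0 allows up to 3 counts. Ratios with the median over genes used 0.5 added UMIs. With 1 library per group no spread between like libraries or mice was measured. The p-values rest on the 1 residual degree of freedom of the 4 libraries, with information on spread shared over genes. A change with age that depends on the label counts as error there. Named were the 9 transporters and, of 18 other carriers, at most 6 passing genes by adjusted p and the 4 of highest CPM. For likeness the gene of highest Pearson r of log2(CPM + 1) was named, among genes of at least 50 CPM and sums of at least 30 cells. Members and lists were chosen with earlier results of these data known. The study states fewer cells than the matrices hold. Close paralogs held few UMIs (Slco1a5 5 to 29, Slc7a2 6 to 31, Slc16a7 0 to 14, Slco1a1 0 to 1, Slco1a6 0 per library).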

Additional observations from a re-analysis of the deposited data

Results flagged for a closer look

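Within the named vessel segments, 9 of the age or genotype comparisons of the 9 genes ran in opposite directions beyond counting error in the 2 groups compared. How many of all genes did so was not counted, so this number is not a result about these genes. With 1 library per group these differences were not tested. In capillary-like cells the log2 ratio of Slc38a5 by genotype label was 1.24 at young age and -0.38 at old age, and by age it was 0.68 under the WT Cre label and -0.95 under the EC-K4KO label. In venous-like cells the ratio of Slc2a1 by label was -0.23 at young age and 0.29 at old age, and by age it was -0.20 and 0.32 under the WT Cre and EC-K4KO labels. Slco1c1 gave 0.24 and -0.42 by label in venous-like cells and -0.15 and 0.08 in arterial-like cells, in the young and old pair. In arterial-like cells the age ratios under the WT Cre and EC-K4KO labels were 0.35 and -0.27 for Mfsd2a, 0.31 and -0.19 for Slc7a1, and 0.49 and -0.34 for Slc7a5. In endothelial-like cells as a whole Klf4 UMIs run against the genotype labels at both ages.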

How the results depend on the processing

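No paired analysis was possible because each group holds 1 library, and leaving out a library leaves the additive model no residual degree of freedom, so no library was left out. Of 126 values of the 9 genes over 14 alternatives the model kept the direction in 120 for age and 125 for genotype label. The cause of the changes below was not tested.

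With age 3 genes were called, all as lower. The count was 6 with total UMIs and 5 at a mean of at least 50 CPM, again all lower. With no filter on low counts it was 5 (1 higher and 4 lower). Of these 9 genes 1 or 2 were called higher with age in 7 alternatives, Slc38a5 in 5, Slc2a1 in 3 and Slc7a1 in 1. With the label 1 was called, as lower. The count was 4 with no filter and 4 after thinning to 1000 UMIs (3 higher and 1 lower in each). Without venous-like cells and within subcluster 3 it was 3 (2 higher and 1 lower in each). In capillary-like cells it was 2 (1 higher and 1 lower). It was 0 with a stricter cell filter and 0 with the label alone (edgeR, 329 genes at an unadjusted p under 0.05). The calls over all genes in these settings are given in the next paragraph. Log2 fold changes reversed for age within subcluster 3 in Slco1a4 (0.094), Slco1c1 (0.016) and Slc7a1 (0.38), and for Slc3a2 with total UMIs (-0.12), no filter (-0.014) and at least 50 CPM (-0.031). For the label Mfsd2a reversed within subcluster 3 (0.01017).

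Of all 14824 genes tested 2423 were called with age (1507 higher, 916 lower). Of the same genes 3966 were called with total UMIs (1090 and 2876) and 790 with age alone. The calls were 3792 of 27161 genes tested with no filter (1877 and 1915) and 1008 of 3407 at 50 CPM (554 and 454). They were 926 of 13996 by DESeq2 (731 and 195), 1222 of 10694 after thinning and 363 of 8442 within subcluster 3. With the label 149 of 14824 were called (82 and 67), against 244 of these with DESeq2 size factors and 0 with the label alone. The calls were 751 of 27161 with no filter (423 and 328) and 456 of 14647 without venous-like cells (241 and 215). They were 309 of 14652 without 3 mixed subclusters (chosen after seeing the data) and 285 of 12955 in capillary-like cells (161 and 124). Classes from marker UMIs alone gave 283 of 14971, and a stricter cell filter 127 of 14503. Thinning gave 256 of 10694 (156 and 100), the 50 CPM limit 91 of 3407 (59 and 32), and subcluster 3 gave 91 of 8442 (58 and 33).

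The median log2 ratio of CPM moved in the young pair from 0.16 to 0.21 with TMM, 0.22 with DESeq2 size factors, 0.14 with equal weight per cell, 0.14 in capillary-like cells, 0.19 without venous-like cells, 0.13 after thinning and 0.056 within subcluster 3, and in the old pair from 0.10 to 0.029 in capillary-like cells. For age under the WT Cre label it moved from -0.33 to -0.17 with TMM, -0.16 with DESeq2 size factors and -0.23 in capillary-like cells, and reversed to 0.054 within subcluster 3. Under the EC-K4KO label it moved from -0.31 to -0.18, -0.19 and -0.24 in the same 3 settings, -0.23 with equal weight, -0.39 without venous-like cells, -0.35 with a stricter filter, -0.22 after thinning and -0.00496 within subcluster 3.

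Values within counting error of 0 also turned sign in 8 alternatives each, Mfsd2a in the old pair (-0.01, up to 0.19 within subcluster 3) and Slc38a5 with age under the EC-K4KO label (0.01, down to -0.95 in capillary-like cells). Ratios beyond counting error reversed for Slc38a5 in the old pair in capillary-like cells (-0.38), without venous-like cells (-0.00611) and within subcluster 3 (-0.0147), and for Slc3a2 with age under the WT Cre label with TMM (0.093), DESeq2 size factors (0.10) and within subcluster 3 (0.22). Within subcluster 3 they also reversed under the WT Cre label for Slco1a4 (0.054) and Slc7a1 (0.27), and under the EC-K4KO label for Slco1a4 (0.00348), Slc7a1 (0.35) and Slc3a2 (0.021). The arterial-like to capillary-like ratio of Slc2a1 reversed with segments from marker UMIs alone (-0.021) and with subclusters at resolution 0.5 (-0.31).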
